A study of Mus musculus with 3 samples.

Results

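The IFITM and small interferon-induced genes described here are 8 genes, Ifitm1, Ifitm2, Ifitm3, Ifitm6, Ifi27, Ifi27l2a, Ifi35 and Ifi44. They were taken by symbol from the 55536 annotated genes, through the gene identifier and symbol that the deposited transcript identifiers pair. Each symbol matched 1 identifier, and all 8 genes are annotated as protein-coding. Their RNA was measured by sequencing of total RNA, depleted of ribosomal RNA, in macrophages grown from the bone marrow of C57BL/6J mice. All 3 libraries belong to 1 group, in which the cells received lipid A, the lipid anchor of bacterial lipopolysaccharide and a ligand of TLR4, at 100 ng/ml for 12 h. They were then washed and kept without it for 12 h, and lipid A at 100 ng/ml was added again for 15 min. The labels name the nuclear fraction as the source and, in the sample description, a nucleoplasmic fraction. The libraries are biological replicates 1 to 3, made from 1 µg of RNA in replicates 1 and 3 and 500 ng in replicate 2. All carry the same donor identifier, and sources used here do not give separate mice, so every p-value reflects only the spread between these samples. Sex and age were not collected. No untreated or singly stimulated library is analysed here, so the values are levels in these nuclei, and none of the genes can be called induced or repressed.

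Interferon-induced transmembrane (IFITM) proteins sit in cell membranes and hinder the fusion of enveloped viruses with the cell, Ifitm3 mostly in endosomes and Ifitm1 mostly at the cell surface in human cells. Macrophages given a TLR4 agonist make interferon beta, which acts back on the cell through its receptor. The signal reaches the interferon-stimulated response element (ISRE) in promoters and turns on many genes, among them IFITM genes and the small genes Ifi27, Ifi27l2a, Ifi35 and Ifi44. Ifi27 and Ifi27l2a encode small hydrophobic proteins of the ISG12 family, Ifi35 encodes a leucine zipper protein that pairs with Nmi, and Ifi44 encodes a cytoplasmic protein with antiviral activity in human cells.

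The 4 IFITM genes lie together on chromosome 7, in 63088 bases of mm10, and their promoter windows differ in ISRE letters. Ifitm2 (minus strand) runs from 140954837 to 140955987, Ifitm1 (plus strand) from 140967221 to 140969825, Ifitm3 (minus strand) from 141009586 to 141010770 and Ifitm6 (minus strand) from 141015699 to 141017924. The windows below are those of RefSeq on GRCm38.p6, with 250 bases before and 50 bases after the start, in the direction of transcription. They are shown for all 4 neighbours, and a link between their letters and the RNA levels was not tested. The windows are chr7:140955912-140956211 (minus strand) for Ifitm2, chr7:140967826-140968125 (plus strand) for Ifitm1, chr7:141010695-141010994 (minus strand) for Ifitm3 and chr7:141016843-141017142 (minus strand) for Ifitm6. Capitals mark matches to the core of the ISRE, read as GAAA, any 2 bases and GAAA again, on either strand.
Ifitm2: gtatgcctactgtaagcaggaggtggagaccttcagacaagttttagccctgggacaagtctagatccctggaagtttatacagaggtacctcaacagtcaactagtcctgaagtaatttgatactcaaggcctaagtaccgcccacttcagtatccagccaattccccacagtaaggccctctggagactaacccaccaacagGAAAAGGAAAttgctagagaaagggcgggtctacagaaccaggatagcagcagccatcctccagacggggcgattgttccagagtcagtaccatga
Ifitm1: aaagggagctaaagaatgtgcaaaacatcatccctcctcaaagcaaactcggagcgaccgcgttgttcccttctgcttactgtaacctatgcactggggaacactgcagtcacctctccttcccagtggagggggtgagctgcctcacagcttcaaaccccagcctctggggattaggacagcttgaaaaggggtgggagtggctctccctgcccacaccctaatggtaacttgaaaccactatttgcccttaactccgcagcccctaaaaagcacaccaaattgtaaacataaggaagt
Ifitm3: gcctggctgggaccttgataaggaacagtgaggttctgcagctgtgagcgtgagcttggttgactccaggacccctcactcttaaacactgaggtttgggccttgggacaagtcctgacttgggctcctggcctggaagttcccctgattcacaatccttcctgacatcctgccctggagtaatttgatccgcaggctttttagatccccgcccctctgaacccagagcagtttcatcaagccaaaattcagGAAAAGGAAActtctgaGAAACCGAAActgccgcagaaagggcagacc
Ifitm6: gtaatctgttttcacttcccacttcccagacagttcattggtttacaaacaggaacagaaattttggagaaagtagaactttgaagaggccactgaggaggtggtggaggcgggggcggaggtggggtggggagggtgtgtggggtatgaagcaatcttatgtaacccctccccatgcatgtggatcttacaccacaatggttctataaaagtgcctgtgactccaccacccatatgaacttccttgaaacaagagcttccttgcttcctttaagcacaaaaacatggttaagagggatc

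The Ifitm2 window held 1 match, GAAAAGGAAA at base 205 of the window, and the Ifitm3 window held 2, at bases 253 and 270. The positions differ in kind. The match in Ifitm2 lies before the RefSeq start and the GENCODE transcript start of that gene. Both matches in Ifitm3 lie after the RefSeq start and after the GENCODE transcript start, so they are inside the transcribed sequence. The first match in Ifitm3 has the same 10 letters as the match in Ifitm2, and the 2 matches in Ifitm3 do not overlap. The letters of the ISRE core, sought as exact matches only, were not in the windows of Ifitm1, Ifitm6, Ifi35 or Ifi44. Variants with another base or another spacing would have been missed. The Ifitm1 window lies at the start of isoforms Ifitm1-201 and Ifitm1-202 and does not cover that of Ifitm1-203, at 140967221, to which much of the RNA of the gene was assigned. The Ifitm6 window likewise covers the start of Ifitm6-201 and not that of Ifitm6-202. Among all 32851 promoter windows of this length, 1131 (3.44%) held the letters at least once. The letters of the gamma-activated site, another interferon-responsive element, TTC, any 3 bases and GAA, were in the windows of Ifitm3, Ifitm6 and Ifi35, against 8.30% of all windows (2726). In Ifitm3 they begin at base 264, also after both starts, and overlap the match to the ISRE core at base 270. For the 6 genes with a window, the RefSeq start lay between 5 and 36 bases from the nearest GENCODE transcript start. No window was matched for Ifi27 and Ifi27l2a. A match describes the letters in a window, and binding was not measured in these libraries.

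All 8 genes were detected, at levels that ran from above 11.0% (Ifitm6) to above 98.8% (Ifitm3) of the detected protein-coding genes. Detection meant a TPM (a level per transcript length, scaled to a fixed sum per library) of at least 1 in all 3 libraries, which 42.8% of the 22028 annotated protein-coding genes reached (9434 genes). Of the 8 members, 5 lay above the median detected protein-coding gene, which had a mean of 8.63 TPM. The median of the members was 5.15, 5.32 and 5.23 on the log2(TPM + 1) scale in replicates 1, 2 and 3, or 5.23 ± 0.08 (SD, n = 3), and that of all detected protein-coding genes was 3.25. At a minimum of 5 TPM, 6 of the 8 were detected.

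**Figure D1:**
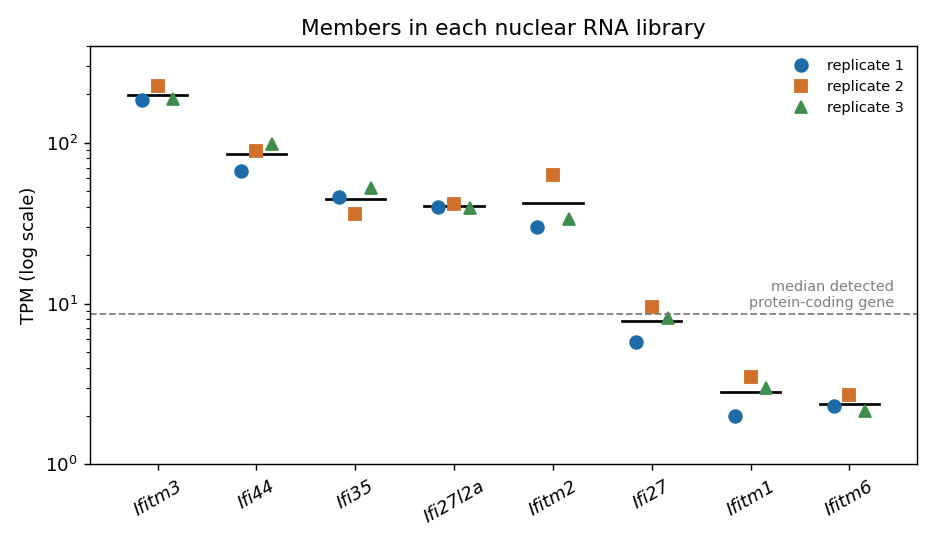
TPM on a log axis of each of the 8 genes in the 3 libraries (points), with the mean over libraries (black bars) and the median of the detected protein-coding genes (dashed line, 8.63 TPM). Ifitm3 is highest in all 3 libraries, 5 means lie above the dashed line, and Ifitm1 and Ifitm6 lie lowest, below 4 TPM in all 3 libraries.

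Ifitm3, whose protein restricts influenza A virus and other viruses that enter through endosomes, had the highest level of the 8. It had 184.57, 226.77 and 186.34 TPM in replicates 1, 2 and 3, from 3073, 2697 and 2936 expected counts, the reads that the authors' quantification assigned to the gene. Replicate 2 was the highest, and the libraries lay within 1.23-fold of each other. The mean of 199 ± 23.9 TPM (SD, n = 3) ranked 116 among the detected protein-coding genes, above 98.8% of them.

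Ifitm2, whose human form also acts in late endosomes, had the least even level of the 8 genes. It had 29.98, 62.58 and 33.75 TPM in replicates 1, 2 and 3, from 474, 707 and 507 expected counts. Replicate 2 was the highest, and replicates 1 and 3 were close to each other. The mean was 42.1 ± 17.8 TPM (SD, n = 3), and the SD on the log2 scale was larger than that of 97.3% of the detected protein-coding genes. Replicate 2 is also the library with the smaller RNA input and the fewest counts, and the part of either in this value was not tested.

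Ifitm1 and Ifitm6 were the lowest of the 8. Ifitm1, known for acting at the cell surface, had 1.99, 3.51 and 3.00 TPM in replicates 1, 2 and 3, from 38, 42 and 63 expected counts, and a mean of 2.83 ± 0.774 TPM (SD, n = 3). Ifitm6, a family member found in mice, had 2.32, 2.69 and 2.16 TPM, from 39, 31 and 33 expected counts, and a mean of 2.39 ± 0.272 TPM. The authors' credibility bounds, which cover error within a library only and whose level the sources used here do not give, overlapped between the 3 libraries for each of these genes. They ran from 1.35 to 4.65 TPM over all libraries for Ifitm1 and from 1.51 to 3.71 TPM for Ifitm6.

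Ifitm3 therefore held most of the RNA of the 4 IFITM members in every library. Its share of the summed TPM of the 4 genes was 84.3%, 76.7% and 82.7% in replicates 1, 2 and 3 (81.3 ± 4.01%, SD, n = 3). Ifitm2 held 13.7%, 21.2% and 15.0% (16.6 ± 3.997%), with the largest share in replicate 2. Ifitm1 and Ifitm6 held between 0.909% and 1.33% each. Ifitm3 exceeded Ifitm2 by 6.16, 3.62 and 5.52-fold in replicates 1, 2 and 3. The 4928 bases between Ifitm3 and Ifitm6 were the shortest gap between these 4 genes, and they parted the highest gene from 1 of the 2 low genes.

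**Figure D2:**
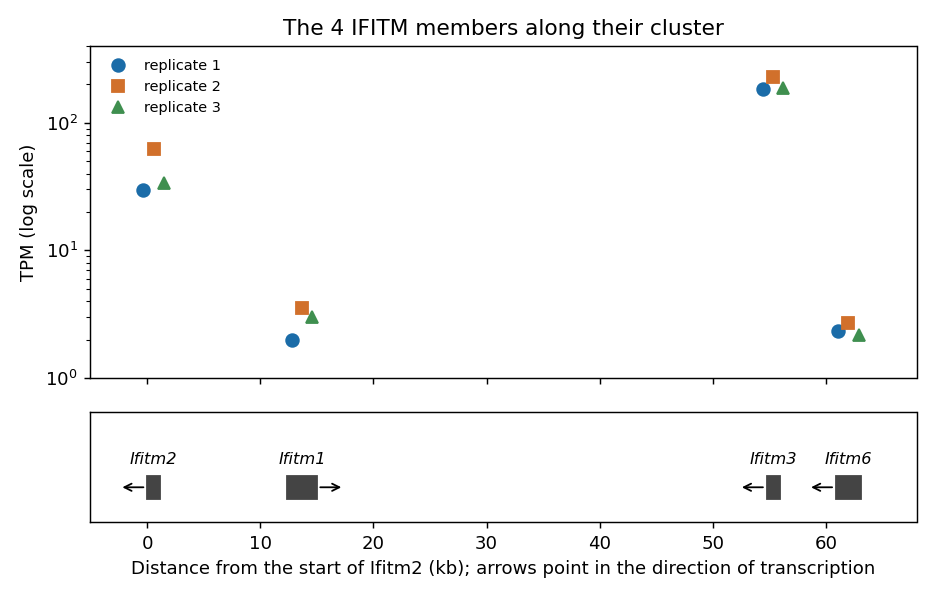
TPM on a log axis of the 4 IFITM genes in the 3 libraries (points, spread sideways for sight), above a map to scale of the genes (boxes) by distance in kb from the start of Ifitm2. Ifitm3, with 184.57 to 226.77 TPM, stands between Ifitm1 and Ifitm6, which have 1.99 to 3.51 TPM, and replicate 2 is the highest library for Ifitm2.

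The transcripts of Ifitm1, Ifitm2 and Ifitm3 share sequence with each other and with other genes. Of all stretches of 31 bases in the Ifitm2 transcript, 55.5% also occur in another annotated gene, in 13 genes in all. Most of these are in Gm45717, which overlaps Ifitm2 on the same strand over 1101 bases and was listed at 0 TPM, and in processed pseudogenes. Of those 13 genes, 11 are not members, and the highest of the 11 had a mean of 5.78 TPM. The share was 20.5% for Ifitm3 and between 14.7% and 23.6% for the 3 isoforms of Ifitm1, while Ifitm6 shared none. Ifitm2 and Ifitm3 had 39 such stretches in common. The authors' posterior SD of the gene count describes uncertainty in assigning reads within a library. It was 0 for Ifitm1 and Ifitm3 in all 3 libraries. For Ifitm2 it was 0.71, 0.7 and 1.25 in replicates 1, 2 and 3, against 474, 707 and 507 expected counts. By that estimate, few reads of these genes were in doubt, and any other effect of the shared sequence was not tested.

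Ifi27l2a, whose protein restricts West Nile virus in the mouse brain, had the smallest spread of TPM of the 8. It had 39.73, 41.85 and 39.48 TPM in replicates 1, 2 and 3, from 350, 265 and 352 expected counts. The libraries lay within 1.06-fold of each other, and 3.41% of the detected protein-coding genes had a smaller SD on the log2 scale. The mean was 40.4 ± 1.302 TPM (SD, n = 3). On other scales it was less even than some members, with 14.6, 13.3 and 16.9 CPM (counts scaled to library size by TMM), while Ifitm3 had 128, 136 and 141 and Ifitm6 had 1.62, 1.56 and 1.58 in replicates 1, 2 and 3. The gene lies on the minus strand of chromosome 12 from 103442167 to 103443680, 1927 bases from the end of Ifi27.

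Ifi27, the neighbour on the plus strand of chromosome 12 (103434211 to 103440239), was lower. It had 5.76, 9.55 and 8.13 TPM in replicates 1, 2 and 3, from 84, 91 and 104 expected counts, with the lowest level in replicate 1 and a mean of 7.81 ± 1.91 TPM (SD, n = 3). Ifi27l2a exceeded Ifi27 by 6.90, 4.38 and 4.86-fold in the 3 libraries, and the ranges of the 2 genes did not overlap. This ratio depended on the quantification. The values above are from the gene table with the columns that RSEM writes (RSEM-format). A separate transcript table with the columns that kallisto writes (kallisto-format) gave ratios of 2.35, 1.95 and 2.62. It assigned 344, 356 and 281 estimated counts to Ifi27. On TPM scaled over nuclear-encoded protein-coding genes, Ifi27 had a mean of 83.1 ± 7.04 in the kallisto-format table and 37.1 ± 7.36 in the RSEM-format table (SD, n = 3), a ratio of 2.24. The same ratio lay between 0.745 and 0.984 for the other 7 members, and its median over detected protein-coding genes was 1.01, with a 95th percentile of 1.75. The Ifi27 transcripts share no stretch of 31 bases with another annotated gene.

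By mean TPM, Ifi44 and Ifi35 were the second and the third highest. Ifi44, on the minus strand of chromosome 3 from 151730922 to 151749960, had 67.20, 89.18 and 97.90 TPM in replicates 1, 2 and 3, from 6521, 6426 and 8097 expected counts, the most counts of any member. Replicate 1 was the lowest, and the mean was 84.8 ± 15.8 TPM (SD, n = 3). Ifi35, on the plus strand of chromosome 11 from 101448407 to 101458698, had 46.07, 36.21 and 52.08 TPM, from 1657.92, 894.91 and 1684.98 expected counts. Replicate 2 was the lowest here, and the mean was 44.8 ± 8.01 TPM. An antisense gene, Gm11626, overlaps Ifi35 over 815 bases and had a mean of 0.273 TPM. The sources used here do not say whether strand was used in counting, so reads of the overlap are uncertain.

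From high to low, the mean log2 levels ran Ifitm3, Ifi44, Ifi35, Ifi27l2a, Ifitm2, Ifi27, Ifitm1 and Ifitm6, and 4 of the 7 neighbours in that order were parted in all 3 libraries. Differences were taken within each library on the log2(TPM + 1) scale and compared by an exact sign-flip test (two-sided). With 3 libraries it cannot give a p below 0.25, so no pair could pass 0.05. Ifitm3 exceeded Ifi44 by 1.23 ± 0.28 and Ifi44 exceeded Ifi35 by 0.90 ± 0.37 (SD, n = 3; exact p = 0.25 each, 0.44 after Benjamini-Hochberg adjustment over 7 pairs). Ifitm2 exceeded Ifi27 by 2.24 ± 0.33 and Ifi27 exceeded Ifitm1 by 1.20 ± 0.03, with the same exact p-values, and the ranges of these 4 pairs did not overlap. On TPM rescaled over nuclear-encoded protein-coding genes, these last 2 differences were 2.35 and 1.40 in the RSEM-format table. On the same scale they were 0.86 and 2.91 in the kallisto-format table, in the same direction. The middle 3 genes could not be ordered. Ifi35 minus Ifi27l2a was 0.13 ± 0.30 and Ifi27l2a minus Ifitm2 was 0.02 ± 0.51 (exact p = 0.5 and 1), with overlapping ranges. Rescaled kallisto-format TPM turned the first of these to -0.14, and leaving out replicate 1 or 3 turned the second to -0.17 or -0.09. Ifitm1 minus Ifitm6 was 0.16 ± 0.27 (exact p = 0.5), also with overlapping ranges.

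None of the 8 members passed the test of 1 library against the other 2. This test used edgeR's quasi-likelihood fit on 14350 genes with Benjamini-Hochberg adjustment at 0.05, and it called 29 genes (0.202%) in replicate 1, 0 genes (0%) in replicate 2 and 1 gene (0.00697%) in replicate 3. In replicate 2, 877 genes had an unadjusted p under 0.05, and DESeq2 called 18 genes. These background counts depended on the tool and filter, and over 4 alternatives they ran from 0 to 76 in replicate 1, from 0 to 349 in replicate 2 and from 0 to 161 in replicate 3. Of the 24 tests of members, 2 had an unadjusted p under 0.05, both in replicate 2. Ifitm2 had 35.6 TMM-scaled CPM in replicate 2, against 19.7 and 24.3 CPM in replicates 1 and 3, a log2 fold change of 0.69 (SE 0.23, edgeR adjusted p = 0.773). Ifi35 had 45.1 CPM in replicate 2, against 69.0 and 80.8 CPM in replicates 1 and 3, a log2 fold change of -0.73 (SE 0.22, edgeR adjusted p = 0.773). The 2 genes lay on opposite sides in the same library. Over 5 count fits of the 8 members, 0 of the 116 tests with an adjusted p passed, and the lowest was 0.187. A further 4 tests got no adjusted p from DESeq2.

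At the level of isoforms the members fell into 2 kinds. Ifitm2, Ifitm3 and Ifi27l2a have 1 annotated isoform each, and Ifitm1 and Ifitm6 have 3 each, all protein-coding. Ifi27, Ifi35 and Ifi44 also have isoforms annotated as retained intron, nonsense-mediated decay (transcripts with an early stop that cells degrade) or processed transcript. In a nuclear fraction, RNA that is not yet spliced cannot be told apart from such isoforms.

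Most of the RNA of Ifi27 was assigned to isoforms that do not code for protein. The 3 retained-intron isoforms held 83.9%, 92.8% and 96.7% of its TPM in replicates 1, 2 and 3 (91.1 ± 6.56%, SD, n = 3), and its 6 protein-coding isoforms held the rest. This share was larger than in 99.6% of the 5980 detected protein-coding genes that have such isoforms, whose median was 23.9%. The kallisto-format table, which gave Ifi27 more reads, gave nearly the same share, 90.6 ± 3.63%. Ifi27-208 had 2.16, 3.57 and 3.05 TPM and Ifi27-209 had 2.19, 4.91 and 3.91 TPM. The sequences below show where these isoforms leave the exons of the coding isoforms, with capitals for bases outside every coding exon, on the plus strand of mm10 at chr12:103436653-103436712 and chr12:103437627-103437705.
Ifi27-208: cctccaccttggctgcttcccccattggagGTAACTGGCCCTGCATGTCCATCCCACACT
Ifi27-209: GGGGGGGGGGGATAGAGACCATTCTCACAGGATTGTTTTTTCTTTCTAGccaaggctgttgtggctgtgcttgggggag

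Ifi27-208 reads on past the end of a coding exon for 291 of its 629 bases, through a GT at the exon edge, the letters with which most introns begin. Ifi27-209 starts inside an intron, and 49 of its 527 bases lie there, up to the AG that closes it. The other bases of Ifi27-209 are also exons of coding isoforms, so most reads that it received could have come from either. The division between the 2 isoforms depended on the quantification. Ifi27-208 held a mean of 37.4% of the gene in the RSEM-format table and 19.4% in the kallisto-format table, and Ifi27-209 held 45.8% and 59.3%.

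Ifi35 divided its RNA between coding and other isoforms almost evenly. The coding isoform Ifi35-201 had 23.50, 15.18 and 25.43 TPM in replicates 1, 2 and 3, which was 51.0%, 41.9% and 48.8% of the gene. Ifi35-203, annotated as nonsense-mediated decay, had 16.81, 17.40 and 20.17 TPM, or 36.5%, 48.1% and 38.7% (41.1 ± 6.14%, SD, n = 3), larger than in 94.6% of 2958 detected genes with such an isoform, whose median was 4.29%. On TPM the coding isoform and Ifi35-202 (5.77, 3.63 and 6.48 TPM) were lowest in replicate 2, and Ifi35-203 had a middle value there. Scaled to the library's total count alone, Ifi35-203 was lowest in replicate 2 as well, with 18.7 CPM, against 20.6 and 24.7 CPM in replicates 1 and 3. Ifi35-202, with a retained intron, held 12.5%, 10.02% and 12.4% (11.7 ± 1.42%). Ifi35-203 runs on from a coding exon through 203 bases of intron, shown with the same capitals at chr11:101457968-101458027 (plus strand, mm10).
Ifi35-203: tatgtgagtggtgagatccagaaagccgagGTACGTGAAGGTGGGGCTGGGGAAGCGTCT

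Ifi44 was mostly coding. Ifi44-201 had 49.42, 68.74 and 68.44 TPM in replicates 1, 2 and 3, or 73.5 ± 3.58% of the gene (SD, n = 3). Ifi44-203, with a retained intron, held 16.9%, 18.0% and 16.6% (17.2 ± 0.74%). It is the longest isoform, with 3219 of its 4064 bases outside coding exons, and it held 24.7% of the expected counts. The processed transcripts held 9.33 ± 4.29%, with 4.93% in replicate 2 and 13.5% in replicate 3. The retained-intron shares of Ifi35 and Ifi44 were larger than in 22.5% and 34.7% of the genes with such an isoform, below the median of 23.9%.

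**Figure D3:**
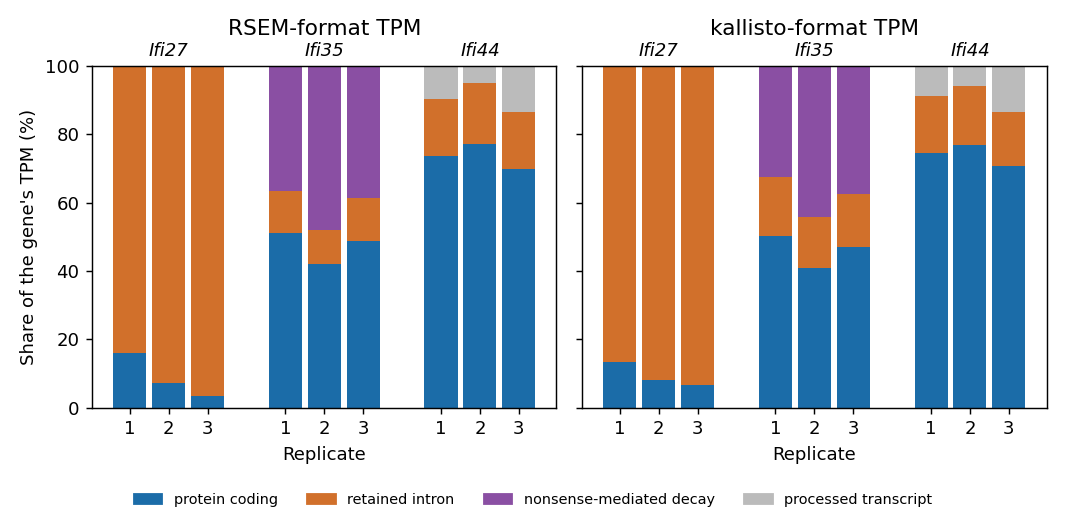
Share in percent of the TPM of Ifi27, Ifi35 and Ifi44 by annotated isoform class, in replicates 1, 2 and 3, from the RSEM-format table (left) and the kallisto-format table (right). Retained-intron isoforms fill 83.9% or more of Ifi27 in all 3 libraries of both tables, and Ifi35-203 (nonsense-mediated decay) is largest in replicate 2 in both tables.

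The isoforms of the low IFITM genes could not be settled at this depth. Ifitm6-201 held all of the TPM in replicates 2 and 3 but 29.7% in replicate 1, where Ifitm6-202 held 63.8% from 24.71 expected counts. Ifitm1-203 held 57.3%, 37.6% and 87.7% in replicates 1, 2 and 3, with the rest in Ifitm1-202. In the kallisto-format table Ifitm1-203 held 89.7% or more in each library.

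The close relatives of the members were low or listed at 0. Of 5 genes (Ifitm5, Ifitm7, Ifitm10, Ifi27l2b and Ifi44l), 1 was detected, Ifitm5, an IFITM gene known from bone-forming cells, at 1.49 ± 0.162 TPM (SD, n = 3). Ifitm7 had 0.297 ± 0.341 TPM and Ifitm10 had 0.253 ± 0.160 TPM. Ifi27l2b, which shares 6.00% of the 31-base stretches of Ifi27l2a, and Ifi44l were listed at 0 in all 3 libraries. The list median was 0.19 ± 0.10 on the log2(TPM + 1) scale.

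Genes whose products bind or modify the encoded proteins had a median near that of the detected protein-coding genes. Of 9 genes, 7 were detected. The median over all 9, with the undetected genes included, was 3.08 ± 0.15 (log2(TPM + 1), SD, n = 3). The value of 3.25 for protein-coding genes covers detected genes only, so the 2 sets are unlike. Zdhhc20, a palmitoyl transferase that attaches lipid to human IFITM3, was highest at 18.1 ± 3.71 TPM. Batf (14.7 ± 3.23 TPM) and Nmi (10.2 ± 2.80 TPM), whose products pair with Ifi35, followed. Fkbp5, whose product binds human IFI44, was the lowest detected at 1.55 ± 0.465 TPM. Nedd4, a ubiquitin ligase of IFITM3, had 0.170 ± 0.0794 TPM and Nr4a1, a nuclear receptor tied to the ISG12 family, had 0.563 ± 0.274 TPM, and neither was detected.

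The interferon pathway was expressed throughout. All 12 signalling genes were detected, with a median of 5.68 ± 0.09 (log2(TPM + 1), SD, n = 3). The transcription factors Irf7 and Stat2 had 386 ± 108 and 220 ± 57.9 TPM. Interferon beta itself, Ifnb1, was the lowest at 2.03 ± 1.28 TPM. Of 24 other interferon-stimulated genes, all were detected, with a median of 7.05 ± 0.21. Rsad2, Ifit2 and Mx1 led with 855 ± 277, 656 ± 143 and 521 ± 173 TPM, and Isg20 was lowest at 23.1 ± 7.62 TPM. Ifitm3 was thus the 1 member above the median of that list, while Ifi27, Ifitm1 and Ifitm6 lay below its lowest gene. In the test of 1 library against the other 2, 0 of the 24 other interferon-stimulated genes, 0 of the 12 signalling genes, 0 of the 9 partners and 0 of the 1 relative tested passed in any of the 3 libraries (edgeR, background as above).

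**Figure D4:**
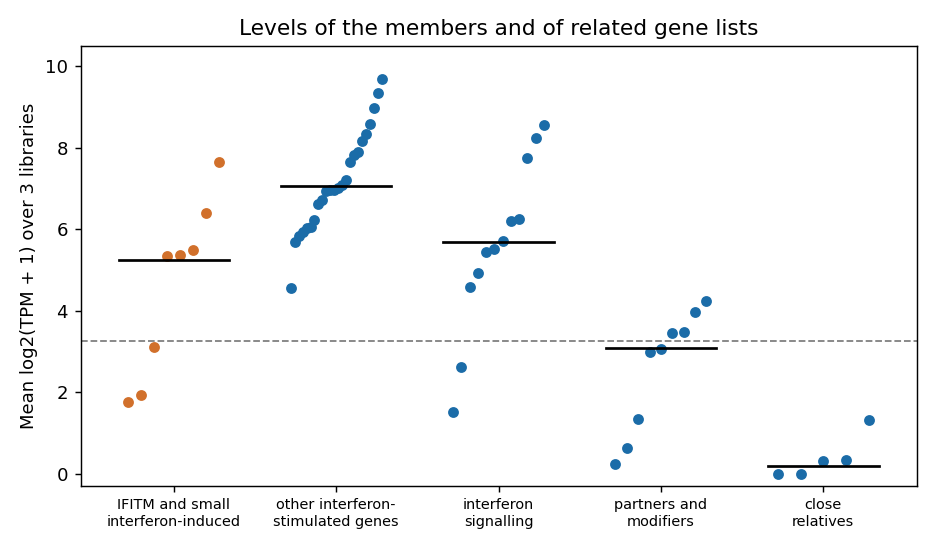
Mean log2(TPM + 1) over the 3 libraries of each of the 8 members (orange) and of the genes of 4 lists (blue), with the list medians (black bars) and the median of the detected protein-coding genes (dashed line, 3.25). The members' median of 5.23 lies below the 7.05 of the other interferon-stimulated genes and close to the 5.68 of the signalling genes, and 3 members lie below all of the other interferon-stimulated genes.

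For each member, the 2 protein-coding genes with the nearest levels over the 3 libraries were found by Euclidean distance on the log2(TPM + 1) scale. Ifitm2 had the least close match, with Ppp1r10 at 0.274 (28.33, 54.94 and 29.53 TPM in replicates 1, 2 and 3) and Qk at 0.294. Ifitm3 was nearest to Tpm3 (0.143) and Cd180 (0.169), and Ifi44 to Klf6 (0.139) and Synj1 (0.148). Ifi35 was nearest to Pstpip1 (0.0386) and Ccdc12 (0.0761), and Adam17 was at 0.0755 from Ifi27l2a. Among the low genes, Ifi27 was nearest to Pkib (0.0846) and Dtx4 (0.0987), Ifitm1 to Gstm4 (0.0677) and Commd1 (0.0834), and Ifitm6 to Nsun5 (0.0333) and Akr1c12 (0.0399). Within a distance of 0.5 lay 39 genes for Ifitm3, 48 for Ifitm2, 83 for Ifi44, 133 for Ifi35, 361 for Ifi27l2a, 508 for Ifitm1, 652 for Ifi27 and 876 for Ifitm6.

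Expected counts over annotated genes summed to 23826101 in replicate 1, 19312032 in replicate 2 and 21730342 in replicate 3, and the common biological coefficient of variation was 0.213. All 12 macrophage markers were detected, with a summed level between 5552 and 7220 TPM, and all 4 monocyte markers, with a sum between 17.8 and 22.9 TPM. No marker of granulocytes (8 genes, summed 1.55 to 3.79 TPM, Elane at 0), dendritic cells (5 genes, summed 1.72 to 2.85 TPM) or B cells (4) was detected. Nor was any marker of T and NK cells (5), fibroblasts (4) or mast cells and basophils (4, with Mcpt8 and Fcer1a at 0). The dendritic marker Ccr7 had 1.53, 0.90 and 0.87 TPM in replicates 1, 2 and 3, close to the minimum of 1. Of 4 erythroid markers, 1 was detected, Alas2. In bulk RNA, fewer cells that express a gene and less RNA per cell cannot be told apart. TPM of nuclear-encoded protein-coding genes made up 19.9%, 22.2% and 20.6% of all TPM, so TPM rescaled over those genes was higher for each member, with a mean of 951 ± 63.7 for Ifitm3.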

How the data were processed

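Total RNA-seq of the nuclear fraction was measured in 3 libraries of 1 group, mapped from the numbered biological replicates of the labels. The authors' gene and transcript tables have the columns that RSEM writes and rest on the mm10 build and GENCODE M21 annotation, per the file headers and their notes. The sources used here give no tool or version. Deposited expected counts are the authors' estimated reads per gene, not normalized. Deposited TPM and posterior mean TPM were scaled to the same total in every library by the authors, and deposited FPKM to length and depth. The credibility bounds printed are the authors'. A second deposited transcript table with estimated counts and TPM has the columns that kallisto writes and was summed per gene here.

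The 26345 rows that name no annotated gene held 0.827%, 0.275% and 0.0547% of expected counts in replicates 1, 2 and 3 and were left out. Levels were compared as log2(TPM + 1). For tests of 1 library against the other 2, expected counts were rounded, filtered with filterByExpr, scaled by TMM and fitted with edgeR 4.0.16 (quasi-likelihood, Benjamini-Hochberg, 0.05), with DESeq2 1.42.0 as an alternative. Tested on simulated counts with 50 changed genes per fold, the edgeR test for replicate 2 recovered 10, 45, 49 and 40 at 2, 4, 8 and 16-fold, among 13998 genes, with 6 calls among unchanged genes. The changed genes were drawn from those with a mean of at least 50 counts. The simulation therefore did not cover changes in genes as low as Ifitm1 and Ifitm6. These had 38 to 63 and 31 to 39 expected counts a library. The count tests ran in R 4.3.3. All else ran in Python 3.11.15 (scipy 1.17.1, numpy 2.4.6, pandas 2.3.3), with figures by matplotlib 3.10.9. Promoter windows came from RefSeq (GRCm38.p6) and isoform sequences from GENCODE M21 transcripts.

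The members and lists were chosen with earlier results of these data known. Named genes were all members, the highest 3 and the lowest detected gene of each list, and the 2 nearest genes of each member; of these, 2 are not reported here. Other genes named (undetected relatives and partners, marker genes and genes that overlap a member) were chosen after their values were seen. Alternatives covered the unit, pseudocount, scaling, filter, quantification, tool and leaving out each replicate. Counting intervals were not computed.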

Additional observations from a re-analysis of the deposited data

How the results depend on the processing

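All 8 members were detected without any 1 replicate and on TPM rescaled over nuclear-encoded protein-coding genes, in the RSEM-format and kallisto-format tables. The minimum stayed at 1 on the rescaled values, which were higher for each member, and leaving out a library can only ease the rule. Neither rescaling the RSEM-format TPM nor leaving out a replicate could therefore lower the count. At a minimum of 5 TPM, 6 were detected. The member median of 5.23 (log2) was 5.75 on FPKM, 7.46 on rescaled TPM and 7.29 on rescaled kallisto-format TPM, and 5.19 to 5.27 without 1 replicate. Of 7 neighbour differences, 2 changed sign. Ifi35 minus Ifi27l2a was -0.14 on rescaled kallisto-format TPM, and Ifi27l2a minus Ifitm2 ranged from -0.17 to 0.31 without 1 replicate. The causes were not tested. The number of genes called moved with the tool and filter. For replicate 1 it was 29, and 2 with DESeq2 size factors, 76 with DESeq2, 0 with no filter (935 at an unadjusted p under 0.05) and 18 on kallisto-format counts. For replicate 2 it was 0, and 18 with DESeq2 and 349 with no filter. For replicate 3 it was 1, and 33 with DESeq2, 161 with no filter and 0 on kallisto-format counts (630 at an unadjusted p under 0.05). The retained-intron share of Ifi35 was 15.9% in the kallisto-format table, that of Ifi44 was 24.7% of expected counts, and the nonsense-mediated decay share of Ifi35, an alternative chosen after seeing the data, was 33.9% of expected counts. A count test without 1 replicate leaves no residual degrees of freedom, so only fold changes were computed. No paired analysis was possible because there is 1 group. With 31 to 104 expected counts a library, Ifi27, Ifitm1 and Ifitm6 limit what their ratios and isoform shares can show.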
